A study of Mus musculus with 6 samples.

Results

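The genes described here are 32 nuclear receptors of the mouse that do not bind steroid hormones, followed through RNA-seq of 3 tissues of the hind limb. The rule names the genes and uses no measured value, though results of these data were known when it was written. The 32 are 2 thyroid hormone receptors (Thra, Thrb), 3 retinoic acid receptors (Rara, Rarb, Rarg), 3 PPARs (Ppara, Ppard, Pparg), 2 RORs (Rora, Rorb), 2 liver X receptors (Nr1h2, Nr1h3), the vitamin D receptor (Vdr), 3 retinoid X receptors (Rxra, Rxrb, Rxrg), 3 NR4A receptors, 3 estrogen-related receptors or ERRs (Esrra, Esrrb, Esrrg), and 10 others. Of 20672 genes listed in any of the count tables they make up 32, and 31 of them are among the 16964 genes listed for all 3 tissues. Nr0b2 was listed in the fat pad alone.

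The series holds 6 libraries of whole-tissue RNA from female mice, 2 of each tissue: the infrapatellar fat pad, a cushion of fat behind the tendon of the kneecap; the rectus femoris, a thigh muscle called muscle below; and the Achilles tendon. Groups follow the 1 label that tells 3 tissues apart; the fields for source and tissue read fat pad in every library. Letrozole, an inhibitor of aromatase, the enzyme that makes estrogens, is named in the series title and in both fat pad sample titles, and in no title of muscle or tendon; no label marks a library as treated or as control. If that word marks treatment, drug and tissue cannot be told apart in what follows. The labels give no strain, age, dose or time, nor whether paired libraries are from different animals. The submitters' names for part of the deposited data set the 2 libraries of each tissue against each other. Whether those 2 differ in condition is not stated, and they are treated here as replicates. The p-values therefore rest on the spread among these 6 libraries alone, and that spread may be technical or may hold such a difference. All 6 carry 1 batch label, but the code strings in the titles differ between the tissues, so tissue and code cannot be told apart.

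Nuclear receptors are transcription factors, most of which are switched by small fat-soluble ligands. Many of those without steroid ligands, among them the PPARs, liver X receptors, retinoic acid, thyroid hormone and vitamin D receptors, bind DNA as pairs with a retinoid X receptor, while the ERRs and NR4A receptors act without a known natural hormone. In fat, PPARγ drives the formation of fat cells; in muscle, PPARδ, the ERRs and the coactivator PGC-1α are known for their part in fuel burning, and the NR4A genes for their fast induction by activity and stress.

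Depth ran from 56216295 to 106319037 counts a library. Levels below are in CPM, the usual depth-scaled count, with library sizes scaled by the trimmed mean of M-values, given for library 1 and then library 2 of each tissue. Each tissue expressed markers of its name. The 8 adipocyte genes summed to 73369.8 and 80341 CPM in the fat pad, the 9 skeletal muscle genes to 298974 and 270519 in muscle and the 8 tendon genes to 31531 and 27549 in tendon. No gene of these 3 lists was at 0 in any library. The tendon libraries also held skeletal muscle transcripts, 38525 and 77303 CPM against 221 and 190.4 in the fat pad. Their first library held more adipocyte transcripts (3618 and 781) and Schwann cell transcripts (1037 and 62.4) than their second. In the fat pad the 4 synovial lining genes summed to 15587 and 18354, and the first library held more neutrophil (1739.5 and 233) and erythroid RNA (29176 and 9369). The 4 cartilage genes summed to 1821 and 1660.3 in tendon and lower in the other tissues. Nearly all of the tendon sum was Chad (1794 and 1620). Acan was at 5.33 and 1.84 there, Col2a1 at 7.79 and 32.6 and Sox9 at 13.7 and 5.76. Macrophage, endothelial, and smooth muscle and pericyte genes were present in every library, while lymphocyte, epidermis and liver genes stayed low, with a highest sum of 50.2. These are whole tissues, so a lower level may reflect fewer cells of a type or less RNA per cell, which cannot be told apart. The part of other cell types in the receptor differences was not tested unless a value below bears on it.

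Of the 32 receptors, 30 passed the filter on low counts and were tested. A receptor is called changed where edgeR's quasi-likelihood test, fitted on all 15856 genes that passed that filter, gave a Benjamini-Hochberg adjusted p under 0.05; log2 fold changes are given ± their standard error. Unless a sentence says otherwise, a single log2 value beside a gene compares the fat pad with muscle, and a second one compares the fat pad with tendon. Between fat pad and muscle 18 of 30 were called, where 59.4% of all genes tested were. In turn, 19 of 30 were between fat pad and tendon, against 58.5%, and 5 of 30 between tendon and muscle, against 26.0%. The calls leaned to one side. In the fat pad 4 receptors were higher and 14 lower than in muscle, where 29.8% of all genes were higher and 29.6% lower. Against tendon 3 were higher and 16 lower, where 27.2% of all genes were higher and 31.4% lower. The median log2 difference over the 30 was -0.998 against muscle, with 0.14 over all genes, and -1.35 against tendon, with -0.01 over all genes. These 2 comparisons share the fat pad libraries and are not independent. In tendon 3 receptors were higher than in muscle and 2 lower, where 13.3% and 12.7% of all genes were. Calls in this comparison rest on both muscle libraries: without the first or the second of them, edgeR called 0 receptors and 43 or 19 of all genes, with 30 and 30 receptors tested. Of 47 genes on the pathway lists that it called, 1 (Myh7) was called under every alternative. The libraries of the tissues did not overlap for 25, 26 and 20 of 30 receptors in the 3 comparisons, against 83.4%, 81.5% and 70.1% of all genes. The shares of all genes called higher and lower, given above, are the background for the gene lists below too. Over all genes the median log2 difference was 0.14, -0.01 and 0.10 in the 3 comparisons.

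**Figure D1:**
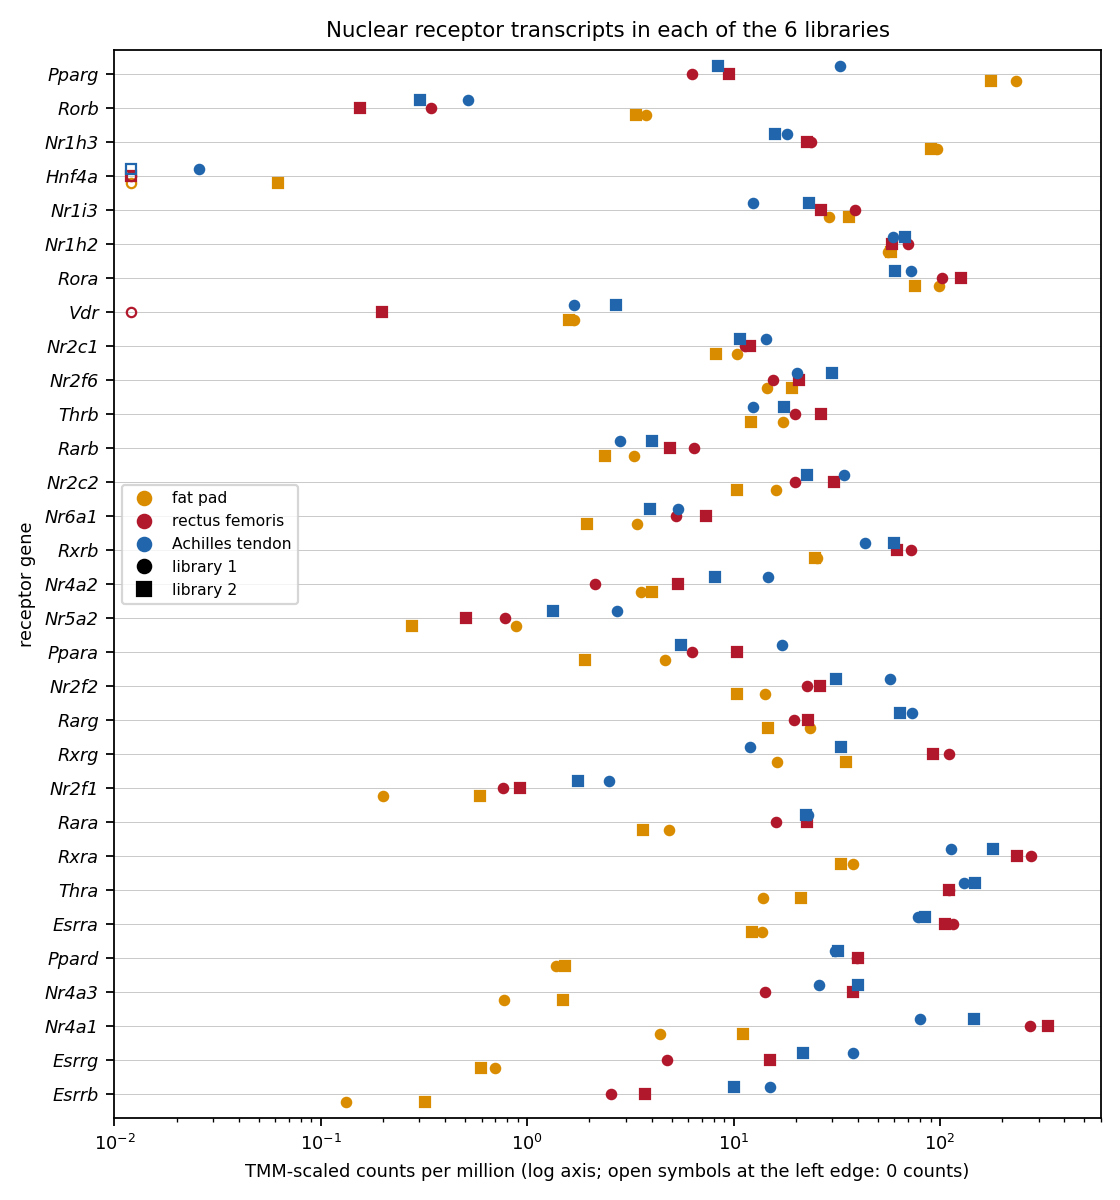
Scaled CPM (log axis) of 31 receptor genes in each of the 6 libraries, ordered by the fat pad level over the higher of the other tissues; circles are library 1 and squares library 2, and open symbols at the left edge mark 0 counts. Pparg, Rorb and Nr1h3 lie to the right in the fat pad, while Ppard, Nr4a1, Nr4a3 and the 3 ERRs lie to the left of both other tissues there.

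The 3 PPARs bind fatty acids and their derivatives. Pparg was 26.0-fold higher in fat pad than in muscle, and Ppard 27.5-fold lower. Pparg stood at 233 and 176 for fat pad, 6.27 and 9.47 for muscle and 32.6 and 8.38 for tendon (log2 difference 4.70 ± 0.66, adjusted p = 0.000953 against muscle; 3.32 ± 0.62, adjusted p = 0.00343 against tendon). Both fat pad libraries lay far above the other 4. The first tendon library lay well above the second, as did adipocyte markers there (3618 and 781 CPM over 8 genes), whose part in the level was not tested. Without that library the difference from tendon was 4.66 at adjusted p = 0.000116, and without the second it was 2.64 at adjusted p = 0.000789. Ppard, the form found in most tissues, stood at 1.37 and 1.53 for fat pad, 39.7 and 40.2 for muscle and 31.1 and 32 for tendon. The 2 libraries of each tissue were close to each other, and the difference was -4.78 ± 0.21, adjusted p = 3.64e-05 against muscle and -4.44 ± 0.20, adjusted p = 5.56e-05 against tendon. Between tendon and muscle Ppard was not called (adjusted p = 0.184).

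Ppara, the form known for fat burning in liver and muscle, was the least settled of the 3, at 4.62 and 1.91 for fat pad, 6.27 and 10.4 for muscle and 17.1 and 5.58 for tendon. Its libraries spread widely in both the fat pad and tendon. It was called lower in fat pad than in tendon (-1.80 ± 0.65, adjusted p = 0.0476). Without the first tendon library the difference was -0.73 at adjusted p = 0.328, and without the second fat pad library -1.31 at adjusted p = 0.202. Leaving out either muscle library ended the call too (-1.81 at adjusted p = 0.0603; -1.81 at adjusted p = 0.0623). Taken per kilobase of exon, so that genes can be compared (RPKM), Pparg made up 98.3% and 98.8% of all PPAR transcript for fat pad, 23.5% and 28.5% for muscle and 56.2% and 33.2% for tendon. Ppard made up 0.227% and 0.337% for fat pad, 58.4% and 47.5% for muscle and 21.1% and 49.8% for tendon.

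Known targets of PPARγ were high where Pparg was. Of 14 tested, 13 were higher in fat pad than in muscle and 0 lower (median log2 difference 3.41), and 11 were higher than in tendon and 0 lower (median 2.17). Without the first muscle library 8 higher and 0 lower were called against muscle. Several are themselves defining genes of fat cells. Cfd, the secreted protease adipsin, stood at 51752 and 58566 for fat pad, 155 and 495 for muscle and 1303 and 186 for tendon. Adipoq, the hormone adiponectin, was at 5313 and 5512 for fat pad, 23.5 and 67.2 for muscle and 269 and 24.9 for tendon. Their differences from muscle were 7.41 ± 1.25 and 6.90 ± 1.26, and ran over 6.80 to 8.47 and 6.33 to 7.84 as each library of the 2 tissues was left out, with the highest values without the second muscle library. Fabp4, a fatty acid carrier of fat cells, was 5.18 ± 0.60 higher than in muscle and 3.65 ± 0.56 higher than in tendon (4.502 at adjusted p = 0.000215 without the first tendon library). Gpd1, which makes the backbone of triglycerides, did not differ detectably between fat pad and muscle (adjusted p = 0.108) and was lower in tendon than in muscle (-2.69 ± 0.30). In tendon against muscle, Aqp7, a glycerol channel, was the 1 target called higher (1.10 ± 0.24); without the second tendon library 10 higher and 1 lower were called.

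Targets shared by PPARα and PPARδ split. Of 16 tested, 7 were higher and 5 lower in fat pad than in muscle (median 0.22), and 7 higher and 5 lower than in tendon (median 0.49). This split depends on the scale: on TPM, 2 higher and 11 lower were called against tendon, and without the first muscle library 2 higher and 5 lower against muscle. The lower ones include the muscle forms of the fuel-burning genes. Cpt1b, which admits fatty acids to muscle mitochondria, stood at 2.46 and 1.74 for fat pad, 339 and 338 for muscle and 175 and 166 for tendon (-7.33 ± 0.30 against muscle). Fabp3, the muscle fatty acid carrier, was at 5.43 and 9.28 for fat pad, 166 and 150.2 for muscle and 179.5 and 128 for tendon (-4.43 ± 0.34). Pdk4, a brake on glucose oxidation, was at 37.4 and 43.0 for fat pad, 866 and 759 for muscle and 385 and 487 for tendon (-4.34 ± 0.28). On the higher side, Plin2, a coat protein of lipid droplets, stood at 549.5 and 765 for fat pad, 45.8 and 52.2 for muscle and 51.6 and 27.9 for tendon (3.75 ± 0.38). Angptl4, an inhibitor of lipoprotein lipase, was at 236 and 498 for fat pad, 11.9 and 19.2 for muscle and 97.2 and 24.2 for tendon (4.56 ± 0.75; 3.92 at adjusted p = 0.012 without the second fat pad library). In tendon against muscle, Cpt1a was higher (0.94 ± 0.20) and Cpt1b (-0.99 ± 0.23), Pdk4 (-0.90 ± 0.24) and Ucp3 (-1.96 ± 0.57) were lower. On TPM Cpt1b and Pdk4 lay the other way, with 0.40 at adjusted p = 0.164 and 0.50 at adjusted p = 0.132. Ucp3, a mitochondrial carrier of muscle, was at 21.7 and 86.4 in the tendon libraries, in the same order as their skeletal muscle markers (38525 and 77303), whose part was not tested.

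The 3 retinoid X receptors, shared partners of many others, were all higher in muscle than in the fat pad. Rxra stood at 37.7 and 33.0 for fat pad, 275 and 237 for muscle and 113 and 181 for tendon, with no overlap between the fat pad and the other tissues (-2.85 ± 0.29, adjusted p = 0.000208 against muscle; -2.05 ± 0.28, adjusted p = 0.000806 against tendon). Rxrb showed a smaller difference in the same direction, at 25.4 and 24.8 for fat pad, 72.4 and 61.9 for muscle and 43.0 and 59.5 for tendon (-1.42 ± 0.21, adjusted p = 0.00116; -1.03 ± 0.21, adjusted p = 0.00485). Rxrg, the form known from skeletal muscle, stood at 16.2 and 35.0 for fat pad, 111 and 92.5 for muscle and 12.0 and 33.2 for tendon. It was lower in fat pad than in muscle (-1.99 ± 0.53, adjusted p = 0.0163) and lower in tendon than in muscle (-2.17 ± 0.54, adjusted p = 0.03), and fat pad and tendon overlapped. The call against muscle was lost without the first fat pad library, with -1.501 at adjusted p = 0.0976, and without the first muscle library, with -1.86 at adjusted p = 0.0599. Without the second fat pad library it was -2.66 at adjusted p = 0.024. The tendon call was lost without the first tendon library, with -1.63 at adjusted p = 0.0613, and without either muscle library, with -2.03 at adjusted p = 0.137 and -2.28 at adjusted p = 0.0921. The tendon library with less Rxrg also had a lower sum of the 9 skeletal muscle genes (38525 and 77303 CPM). Among these, the fast myosin Myh4 was at 595 and 19278, while Myh2 (6175 and 3144) and Myh7 (4981 and 2546) went the other way. The part of muscle RNA in the Rxrg difference was not tested. Summed per kilobase, the 3 genes reached 20.4 and 27.5 RPKM for fat pad, 117 and 99.2 for muscle and 36.7 and 62.5 for tendon. Rxrg made up 34.6% and 55.4% for fat pad, 41.3% and 40.6% for muscle and 14.2% and 23.1% for tendon.

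Among RefSeq promoter windows of build GRCm38.p6, 250 bases before to 50 after a transcript start, 31 of the 32 receptors had at least 1 entry (51 windows in all). Of the 51, the windows of Rxra and Rxrg hold the letters AAAGGTCA, on either strand, an extended half-site that orphan receptors such as those of the NR4A group bind as single molecules; 1.51% of all 32851 windows hold it. The shorter letters AGGTCA, contained in it, occur in 16.3% of all windows and in 9 of the 51. Both windows are shown because these 2 genes are the only receptors whose window holds the longer element; a match is a description and no evidence of binding. Capitals mark the match, and the windows lie at chr2:27709042-27709341, plus strand, and chr1:167618015-167618314, plus strand.
Rxra: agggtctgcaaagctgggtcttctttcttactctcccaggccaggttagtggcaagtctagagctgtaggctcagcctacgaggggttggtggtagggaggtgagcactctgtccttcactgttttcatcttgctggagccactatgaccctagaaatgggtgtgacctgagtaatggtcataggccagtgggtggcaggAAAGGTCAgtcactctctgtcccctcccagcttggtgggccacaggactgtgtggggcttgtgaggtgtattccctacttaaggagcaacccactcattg
Rxrg: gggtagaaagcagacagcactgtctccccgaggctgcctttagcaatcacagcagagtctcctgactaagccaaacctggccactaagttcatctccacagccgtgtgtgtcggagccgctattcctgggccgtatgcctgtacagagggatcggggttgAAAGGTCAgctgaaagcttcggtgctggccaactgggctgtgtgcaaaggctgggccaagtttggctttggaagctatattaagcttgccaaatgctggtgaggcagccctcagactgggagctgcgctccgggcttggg

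The liver X receptors sense oxidized cholesterol. Nr1h3 (LXRα) was 4.03-fold higher in fat pad than in muscle and 5.50-fold higher than in tendon, at 96.5 and 90.1 for fat pad, 23.8 and 22.5 for muscle and 18.0 and 15.9 for tendon (2.01 ± 0.17, adjusted p = 0.000107; 2.46 ± 0.17, adjusted p = 8.45e-05). The 2 libraries of each tissue lay close together. Macrophage markers, like adipocyte markers, also summed highest in the fat pad, at 568 and 814 CPM. Their sums were 214 and 206 in muscle and 204 and 123 in tendon, though Mrc1 and Cd163 among them were lower in fat pad than in muscle. The part of either cell type in the Nr1h3 level was not tested. Nr1h2 (LXRβ), the broadly expressed form, stood at 55.9 and 57.5 for fat pad, 69.7 and 58.7 for muscle and 59.3 and 67.4 for tendon and was called in none of the 3 comparisons (adjusted p = 0.402, 0.459 and 0.944). The 2 forms changed places by RPKM: Nr1h3 made up 69.7% and 67.6% of the pair for fat pad, 31.3% and 33.8% for muscle and 28.8% and 23.9% for tendon.

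Of 11 known LXR targets, 7 were higher and 1 lower in fat pad than in muscle (median 1.59), and 4 were higher and 1 lower than in tendon (median 0.48; on TPM 4 higher and 5 lower). Apoe, a lipoprotein component made by fat cells and macrophages, stood at 3211 and 3471 for fat pad, 229 and 222 for muscle and 479 and 288 for tendon (3.89 ± 0.37 against muscle). Scd1, which desaturates fatty acids, stood at 10842 and 15432 for fat pad, 399.9 and 1365 for muscle and 5343 and 423 for tendon (3.90 ± 1.20, a call lost without any 1 library of fat pad or muscle, with adjusted p = 0.0561 to 0.131). In tendon its level was ordered between the 2 libraries as the adipocyte markers were. Smpdl3a, a phosphodiesterase, was higher than in tendon (2.84 ± 0.24) and lower in tendon than in muscle (-1.56 ± 0.23). Abca1, the cholesterol exporter often used to read out LXR activity, stood at 87.9 and 61.0 for fat pad, 38.8 and 35.6 for muscle and 105 and 39.5 for tendon and was not called against muscle or tendon (adjusted p = 0.0844 and 0.937). Abca7, a related transporter, was the 1 target lower in the fat pad (-1.93 ± 0.31; -1.87 ± 0.31). In tendon against muscle, Arl4c (1.58 ± 0.29) and Abcg1 (1.29 ± 0.37) were higher in tendon. Among enzymes that make or break down oxysterols, Ch25h (3.62 ± 0.55) and Hsd3b7 (3.57 ± 0.23) were higher in fat pad than in muscle, and Cyp27a1 was lower (-1.99 ± 0.28), out of 5 tested. Against tendon Hsd3b7 was higher (2.57 ± 0.22) and Cyp46a1 lower (-3.50 ± 0.90, a call lost without either fat pad library or the second tendon library).

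**Figure D2:**
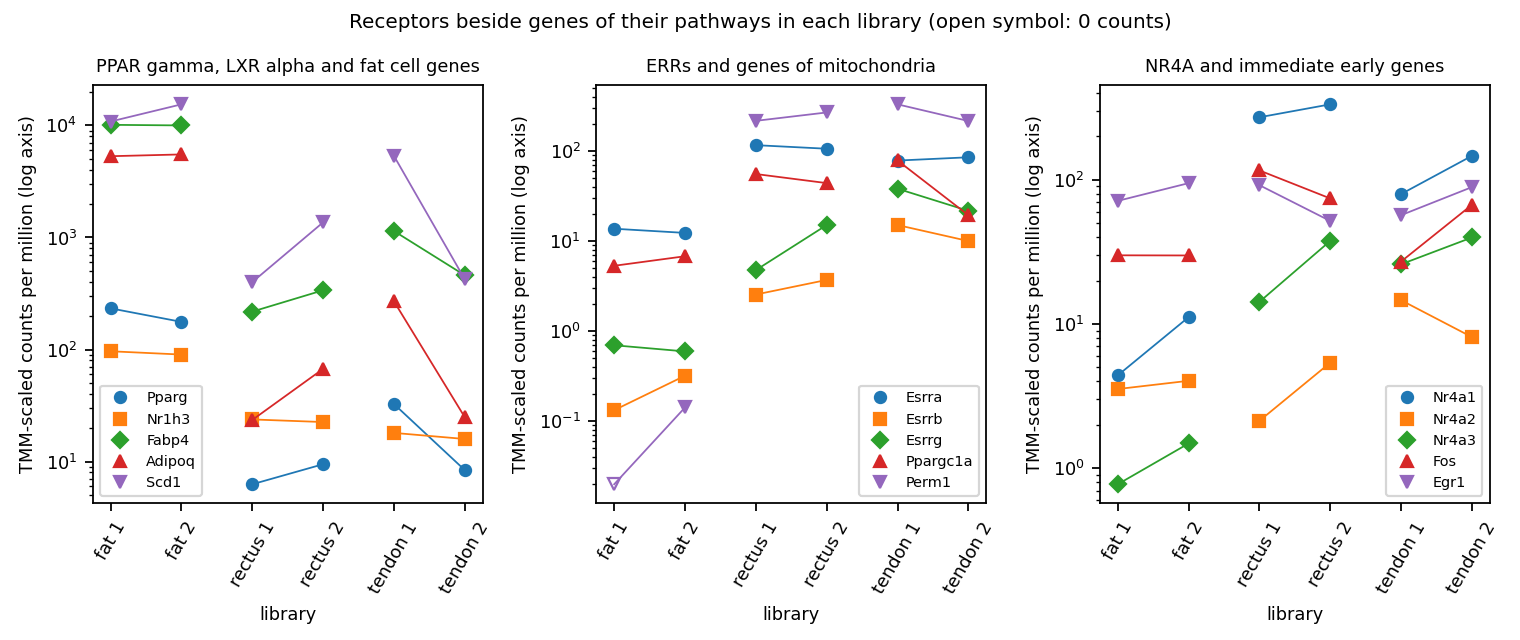
Scaled CPM (log axis) in the 6 libraries for receptors and genes of their pathways; a line joins the 2 libraries of a tissue and an open symbol marks 0 counts. Pparg and Nr1h3 are highest in the fat pad with the fat cell genes, the ERRs are lowest there with Ppargc1a and Perm1, and Nr4a1 and Nr4a3 are lowest there while Egr1 is not.

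Vdr, the vitamin D receptor, was near the detection limit in muscle. Its counts were 153 and 180 for fat pad, 0 and 9 for muscle and 130 and 195 in tendon, which gave CPM of 1.69 and 1.60 for fat pad, 0 and 0.198 for muscle and 1.67 and 2.68 for tendon. The fat pad was called higher than muscle (3.999 ± 1.16, adjusted p = 0.0217) and tendon higher than muscle (4.40 ± 1.17, adjusted p = 0.036); fat pad and tendon were not told apart (adjusted p = 0.737). With 1 muscle library at 0, the size of the fitted difference from muscle depended on the muscle library kept. It was 3.04 without the first muscle library and 10.02 without the second. The fat pad call was lost without either fat pad library (3.99 at adjusted p = 0.0505 and 4.03 at adjusted p = 0.0536), and the tendon call was lost without any 1 of the 6 libraries, with adjusted p from 0.0534 to 0.104. In the deposited TPM the tendon libraries had 0.865 and 20.1, unlike their counts. Of 4 vitamin D metabolism genes tested, Cyp2r1, an activating hydroxylase, was higher in fat pad than in muscle (4.45 ± 0.72) and tendon (2.47 ± 0.63, a call lost without the second library of fat pad or tendon), and Cyp27a1 was lower than in muscle. All 4 tested targets of the receptor were higher in fat pad than in muscle, 2 of them bone genes: Spp1 (osteopontin; 4.25 ± 0.79, or 2.66 to 4.99 as each library of the 2 tissues was left out) and Bglap (osteocalcin), with 5868 and 5052 counts for fat pad, 2 and 0 for muscle and 2 and 4 for tendon. The other 2 calls, of the cell cycle inhibitor Cdkn1a and of S100g, were each lost without the second fat pad library or either muscle library, that of Cdkn1a also on TPM and that of S100g without the second tendon library. Bglap has near-identical copies in the mouse and is uncertain as a single gene. Against tendon 1 of the 4 was higher and 1 lower, and 2 were higher in tendon than in muscle, S100g and Spp1 (5.48 ± 0.83). The 4 bone markers, Bglap among them, summed to 169 and 69.9 CPM in the fat pad, with 14.6 and 21.4 in muscle; their part was not tested. S100g, a calcium carrier, had no counts in muscle and was at 1.07 and 2.71 in tendon, at least 27.1-fold higher against a floor of 3 counts in each muscle library.

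The 3 retinoic acid receptors were distributed differently. Rara stood at 4.88 and 3.62 for fat pad, 16.0 and 22.6 for muscle and 22.9 and 22.3 for tendon, lower in the fat pad than in both (-2.18 ± 0.27, adjusted p = 0.000519; -2.41 ± 0.27, adjusted p = 0.000372), with no overlap. Rarg, the form known from skin and cartilage, was highest in tendon, at 23.4 and 14.7 for fat pad, 19.6 and 22.9 for muscle and 73.4 and 63.9 for tendon. Both tendon libraries lay above the other 4 (-1.85 ± 0.26, adjusted p = 0.000923 for fat pad against tendon; 1.69 ± 0.26, adjusted p = 0.0094 for tendon against muscle). The tendon to muscle call was lost when either muscle library was left out (1.59 at adjusted p = 0.0891; 1.82 at adjusted p = 0.0645). Rarb stood at 3.28 and 2.37 for fat pad, 6.42 and 4.93 for muscle and 2.82 and 4.03 for tendon and was called in no comparison (adjusted p = 0.0619, 0.567 and 0.204). Of its exonic bases 38.4% overlap genes on the other strand, Top2b among them. Its counts are uncertain, since the strand setting of the counting is not given in the sources used here. Summed over the 3, RPKM was 7.22 and 4.73 for fat pad, 9.48 and 11.5 for muscle and 23.0 and 20.9 for tendon, and Rarg made up 75.9% and 73.0% for fat pad, 48.5% and 46.8% for muscle and 74.8% and 71.8% for tendon.

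Genes that carry, make and break down retinoids were set beside these receptors. Of 15 tested, 8 were higher and 4 lower in fat pad than in muscle (median 1.33), where 29.8% and 29.6% of all genes were. Against tendon 4 were higher and 5 lower (median -0.67), beside 27.2% and 31.4% of all genes. In tendon 6 were higher and 0 lower than in muscle (median 1.12), beside 13.3% and 12.7%. Aldh1a3, which makes retinoic acid, stood at 188 and 169 for fat pad, 2.50 and 3.30 for muscle and 5.92 and 6.68 for tendon (5.94 ± 0.24 for fat pad against muscle). Rbp4, the retinol carrier of blood, which fat also makes, stood at 693 and 1135 for fat pad, 4.56 and 11.8 for muscle and 24.2 and 4.63 for tendon (6.80 ± 0.98; 7.64 at adjusted p = 0.00597 without the second muscle library). Cyp26a1, which degrades retinoic acid and is itself a classic target of its receptors, had no counts in fat pad libraries, 0.441 and 0.330 CPM in muscle and 5.91 and 8.94 in tendon. Against a floor of 3 counts in each fat pad library, tendon was at least 248-fold higher, and tendon exceeded muscle by 4.26 ± 0.55 on the log2 scale. Cyp26b1, a second degrading enzyme, stood at 2.59 and 3.01 for fat pad, 6.17 and 11.3 for muscle and 37.7 and 23.0 for tendon (-3.44 ± 0.40 for fat pad against tendon). Aldh1a2, another maker of retinoic acid, was higher in tendon than in muscle (2.03 ± 0.55), as were Dhrs9 (2.84 ± 0.79) and Aldh1a3. Stra6, a retinol channel, was low in the fat pad (0.398 and 0.356; -1.89 ± 0.55 against muscle, a call lost without the second fat pad library or either muscle library), and Crabp1, a retinoic acid carrier, was lower than in tendon (-5.69 ± 1.52; -10.71 to -4.70 as each library of the 2 tissues was left out). Of 10 receptor targets, Rarres1 (5.17 ± 0.57; 4.31 at adjusted p = 0.00171 without the second fat pad library) and Rarres2 (4.31 ± 0.29) were the largest of 4 called higher in fat pad than in muscle, and 3 were called lower. Against tendon 3 were higher and 3 lower, and between tendon and muscle 3 were higher and 0 lower. Rarres2 encodes chemerin, a signal protein made by fat cells. Cyp26a1, Cyp26b1, Stra6, Dhrs3, Crabp2 and Lrat stand in both lists.

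Thra, the main thyroid hormone receptor of muscle, was 6.28-fold lower in fat pad than in muscle and 7.92-fold lower than in tendon, at 13.9 and 21.2 for fat pad, 110.1 and 110.2 for muscle and 131 and 147 for tendon (-2.65 ± 0.25, adjusted p = 0.000167; -2.99 ± 0.25, adjusted p = 0.000142). The groups did not overlap; 5.7% of its exonic bases overlap Nr1d1 on the other strand. Thrb stood at 17.3 and 12.2 for fat pad, 19.8 and 26.5 for muscle and 12.4 and 17.5 for tendon and was called in no comparison (adjusted p = 0.0886, 0.952 and 0.146). By RPKM Thra made up 56.2% and 73.6% of the pair for fat pad, 89.9% and 87.0% for muscle and 94.4% and 93.1% for tendon. Of the genes that activate, inactivate, bind or carry the hormone, 8 were tested. Dio2, which activates thyroxine inside cells, stood at 2.92 and 1.31 for fat pad, 2.23 and 5.48 for muscle and 20.9 and 46.1 for tendon (-3.99 ± 0.65 for fat pad against tendon, or -4.62 to -3.32 as each library of the 2 was left out, and 3.12 ± 0.63 for tendon against muscle). Crym, a binding protein of the hormone, stood at 2.06 and 1.55 for fat pad, 5.10 and 8.54 for muscle and 0.142 and 0.536 for tendon, lowest in tendon (-4.33 ± 0.73 against muscle; 2.41 ± 0.68 for fat pad against tendon). On TPM the latter lay the other way, with -0.64 at adjusted p = 0.398, and without the first fat pad library it was 2.25 at adjusted p = 0.0605. The transporters Slc16a10 (-1.72 ± 0.30) and Slc7a5 (2.25 ± 0.59) parted between tendon and muscle in opposite directions. In all, 0 were higher and 4 lower in fat pad than in muscle, 1 and 4 against tendon, and 3 and 3 in tendon against muscle. Dio3, which inactivates the hormone, was among those called lower in the fat pad in both comparisons, so these counts do not measure supply.

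Of 10 tested targets of these receptors, 1 was higher and 8 lower in fat pad than in muscle, and 2 were higher and 8 lower than in tendon. Several are contractile genes of muscle: Myh4 (fast myosin) stood at 13.2 and 8.15 for fat pad, 96382 and 96316 for muscle and 595 and 19278 for tendon. Atp2a1, the fast calcium pump, was at 21.3 and 8.37 for fat pad, 61192 and 54173 for muscle and 5776 and 14831 for tendon. The 1 higher than in both was Thrsp, a lipogenic protein of fat and liver, at 1709.7 and 3850.5 for fat pad, 39.6 and 90.4 for muscle and 94.8 and 18.2 for tendon (5.42 ± 0.96 against muscle; 5.62 ± 0.97 against tendon). Leaving out each library of the tissues compared gave 4.71 to 6.13 and 4.87 to 7.30. Me1, malic enzyme, was higher than in tendon (2.15 ± 0.33). Among the others, Klf9, a transcription factor, stood at 115 and 92.2 for fat pad, 241 and 247 for muscle and 233 and 271 for tendon (-1.24 ± 0.22). Hr, a corepressor, was at 3.30 and 5.11 for fat pad, 108 and 115 for muscle and 81.0 and 171 for tendon (-4.72 ± 0.43). Between tendon and muscle 2 were higher and 4 lower. Myh7, the slow myosin, stood at 1.79 and 6.12 in muscle and 4981 and 2546 in tendon (9.89 ± 0.85), and the slow calcium pump Atp2a2 followed (4.70 ± 0.39), while Atp2a1 was lower (-2.49 ± 0.72).

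Rora, a widely expressed regulator of lipid metabolism and the circadian clock, stood at 98.6 and 75.5 for fat pad, 102 and 126 for muscle and 72.2 and 60.1 for tendon. It was not called between the fat pad and muscle or tendon (adjusted p = 0.171 and 0.167) and was lower in tendon than in muscle (-0.78 ± 0.22, adjusted p = 0.0439). That call was lost without any 1 library of muscle or tendon, with -0.94 to -0.61, adjusted p = 0.0683 to 0.221, and with scaling by total counts, with -0.05 at adjusted p = 0.876. Rorb, known from the retina and brain, was scarce and higher in the fat pad, at 3.75 and 3.35 for fat pad, 0.343 and 0.154 for muscle and 0.515 and 0.302 for tendon (3.83 ± 0.70, adjusted p = 0.00298; 3.11 ± 0.66, adjusted p = 0.00599). These levels are 339 and 377 counts against 14 and 7 in muscle and 40 and 22 in tendon. Without the first muscle library the difference from muscle was 4.51 at adjusted p = 0.012. Even in the fat pad Rora made up 95.7% and 95.02% of the pair by RPKM.

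The estrogen-related receptors, a group of orphan receptors, switch on genes of mitochondria together with PGC-1 coactivators. All 3 were lower in fat pad than in muscle and tendon, and none of their fat pad libraries overlapped the others. Esrra stood at 13.7 and 12.3 for fat pad, 116 and 106 for muscle and 78.1 and 84.9 for tendon (-3.09 ± 0.18, adjusted p = 4.81e-05; -2.65 ± 0.18, adjusted p = 7.94e-05). Esrrg was 46.1-fold lower in fat pad than in tendon, at 0.697 and 0.596 for fat pad, 4.75 and 15.0 for muscle and 38.0 and 21.6 for tendon (-3.94 ± 0.61, adjusted p = 0.00141; -5.53 ± 0.65, adjusted p = 0.000438). Esrrb, the scarcest of the 3 per kilobase, stood at 0.133 and 0.320 for fat pad, 2.55 and 3.70 for muscle and 15.0 and 9.99 for tendon (-3.76 ± 0.53, adjusted p = 0.000972; -5.76 ± 0.57, adjusted p = 0.000234). Single libraries moved these sizes: for Esrrg, the difference from muscle was -4.54 at adjusted p = 0.000757 without the first muscle library and -2.88 at adjusted p = 0.00301 without the second. For Esrrb it was -4.54 at adjusted p = 0.0027 without the second fat pad library, with -6.55 at adjusted p = 0.00168 against tendon.

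Tendon differed from muscle in the makeup of this family. Esrrb was higher in tendon (2.001 ± 0.48, adjusted p = 0.0272). The call was lost without the first tendon library (1.66 at adjusted p = 0.11) and with either muscle library left out (1.76 at adjusted p = 0.171; 2.30 at adjusted p = 0.097). Esrrg was not called (adjusted p = 0.0694), although both tendon libraries lay above both muscle libraries. The share of Esrra in the summed RPKM was 95.9% and 94.96% for fat pad, 95.7% and 88.8% for muscle and 67.4% and 79.0% for tendon, and that of Esrrg 3.45% and 3.25% for fat pad, 2.78% and 8.94% for muscle and 23.2% and 14.2% for tendon. The sum itself was 27.6 and 27.1 RPKM in muscle and 26.4 and 24.5 in tendon, against 3.25 and 2.95 in the fat pad. Beside Esrrg and Esrrb, the slow and oxidative myosins differed in the same direction: Myh7 was at 1.79 and 6.12 CPM in muscle and 4981 and 2546 in tendon, and Myh2 at 475 and 2121 in muscle and 6175 and 3144 in tendon. Their part in the ERR levels was not tested.

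Of 14 tested ERR targets, Esrra itself among them, 0 were higher and 10 lower in fat pad than in muscle (median -2.49), 2 higher and 8 lower than in tendon (median -1.43), and 0 higher and 9 lower in tendon than in muscle (median -1.05). The last count rests on the scale and on the muscle libraries: with total counts 0 higher and 2 lower were called, on TPM 1 higher and 0 lower, and without either muscle library 0 higher and 0 lower. Perm1, a muscle partner of PGC-1α, stood at 0 and 0.142 for fat pad, 215 and 267 for muscle and 328 and 214 for tendon (-11.59 ± 0.93 against muscle). Ckmt2, the mitochondrial creatine kinase of muscle, was at 0.243 and 1.76 for fat pad, 1062 and 1240.5 for muscle and 645 and 481 for tendon (-10.15 ± 1.04). Both sizes rest on the fat pad libraries, where counts are near 0: leaving out each library of the 2 tissues gave -16.94 to -10.67 and -12.20 to -9.32. The targets higher in fat pad than in tendon were Cycs, cytochrome c (2.13 ± 0.30), and Sdhb, a subunit of succinate dehydrogenase (1.22 ± 0.23; on TPM -0.13 at adjusted p = 0.653). In tendon against muscle, Idh3a (-1.81 ± 0.29) and Cycs (-1.55 ± 0.29) had the largest differences, while Perm1 was not called (adjusted p = 0.843). Skeletal muscle markers differ across the tissues in the same order as this list (given above), and their part was not tested.

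The 3 NR4A receptors are immediate early genes, switched on within a short time of a stimulus. Nr4a1 was 38.8-fold lower in fat pad than in muscle, at 4.40 and 11.1 for fat pad, 271 and 333 for muscle and 79.6 and 146 for tendon (-5.28 ± 0.56, adjusted p = 0.000265; -3.86 ± 0.52, adjusted p = 0.000828 against tendon). Every muscle library lay above every tendon library, but this difference was not called (adjusted p = 0.0671). Nr4a3 stood at 0.774 and 1.48 for fat pad, 14.2 and 37.7 for muscle and 25.9 and 39.8 for tendon (-4.51 ± 0.59, adjusted p = 0.000661; -4.85 ± 0.60, adjusted p = 0.000538). Nr4a2 followed another order, at 3.54 and 4.04 for fat pad, 2.13 and 5.39 for muscle and 14.6 and 8.11 for tendon: fat pad and muscle overlapped, and the fat pad was lower than tendon (-1.58 ± 0.51, adjusted p = 0.0317). That call was lost without the first tendon library, with -1.05 at adjusted p = 0.157, and without either fat pad library, with -1.42 at adjusted p = 0.135 and -1.69 at adjusted p = 0.101. Without the second fat pad library the Nr4a1 differences were -6.11 at adjusted p = 0.00139 and -4.69 at adjusted p = 0.00242, and without the second muscle library that of Nr4a3 was -3.65 at adjusted p = 0.00198. By RPKM the 3 genes summed to 2.26 and 4.42 for fat pad, 80.1 and 102 for muscle and 30.6 and 50.4 for tendon; Nr4a2 made up 38.6% and 22.5% for fat pad, 0.655% and 1.296% for muscle and 11.8% and 3.97% for tendon.

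The promoter windows of the 3 genes are shown because each holds the letters TGACG, the half-site of the cyclic AMP response element. Each window holds them 4 times, counted over both strands together. The share of all windows that hold 4 was not counted. At least 1 such match occurs in 20.8% of all 32851 windows and in 15 of the 51 receptor windows. Capitals mark each match (TGACG, or CGTCA where it lies on the other strand), and no match overlaps another. The windows are at chr15:101266596-101266895, plus strand; chr2:57123954-57124253, minus strand; and chr4:48045055-48045354, plus strand (GRCm38.p6, RefSeq). As above, a match is a description.
Nr4a1: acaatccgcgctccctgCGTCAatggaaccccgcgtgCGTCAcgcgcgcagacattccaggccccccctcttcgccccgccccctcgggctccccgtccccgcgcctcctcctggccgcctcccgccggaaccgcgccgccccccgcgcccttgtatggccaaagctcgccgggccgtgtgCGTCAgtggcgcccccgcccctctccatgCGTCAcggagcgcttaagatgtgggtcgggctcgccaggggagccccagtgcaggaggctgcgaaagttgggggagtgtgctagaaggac
Nr4a2: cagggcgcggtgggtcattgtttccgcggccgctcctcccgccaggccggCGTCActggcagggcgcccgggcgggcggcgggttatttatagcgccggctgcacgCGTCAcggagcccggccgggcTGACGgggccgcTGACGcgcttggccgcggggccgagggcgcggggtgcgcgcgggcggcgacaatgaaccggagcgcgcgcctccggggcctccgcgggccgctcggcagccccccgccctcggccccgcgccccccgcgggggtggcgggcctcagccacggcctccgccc
Nr4a3: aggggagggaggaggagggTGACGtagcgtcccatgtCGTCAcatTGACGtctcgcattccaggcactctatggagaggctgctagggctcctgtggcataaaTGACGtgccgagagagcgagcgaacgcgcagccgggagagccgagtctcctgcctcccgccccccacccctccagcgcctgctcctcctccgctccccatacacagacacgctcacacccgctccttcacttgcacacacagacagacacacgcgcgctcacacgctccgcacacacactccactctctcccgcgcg

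Other immediate early genes did not move as a block with Nr4a1. Of 14 tested, 3 were higher and 6 lower in fat pad than in muscle (median 0.10), 2 higher and 5 lower than in tendon (median -0.48), and 2 higher and 0 lower in tendon than in muscle. Fos stood at 29.9 and 29.8 for fat pad, 116 and 74.1 for muscle and 27.1 and 67.0 for tendon (-1.67 ± 0.43 against muscle). The Fos call was lost without either fat pad library or the first muscle library (-1.67 to -1.32, adjusted p = 0.0724 to 0.0773). Fosb was at 0.807 and 0.204 for fat pad, 35.3 and 16.1 for muscle and 3.90 and 12.4 for tendon (-5.68 ± 0.91). Egr3 was at 0 and 0.0445 for fat pad, 1.76 and 1.78 for muscle and 5.82 and 7.49 for tendon (-6.12 ± 0.90). The sizes for Fosb and Egr3 rest on single libraries: leaving out each library of the 2 tissues gave -6.93 to -4.995 and -9.86 to -5.23. Egr1, at 71.3 and 94.7 for fat pad, 91.6 and 51.7 for muscle and 56.8 and 88.9 for tendon, was called in no comparison (adjusted p = 0.614, 0.657 and 0.966). On the other side, Junb (1.4 ± 0.28) and Ier2 (1.35 ± 0.27) were higher in fat pad than in muscle, and higher than in tendon (1.17 ± 0.27 and 0.98 ± 0.27). Against tendon both calls were lost on TPM (0.02 at adjusted p = 0.958; 0.09 at adjusted p = 0.802), and that of Ier2 also without the second fat pad or the first tendon library (0.81 at adjusted p = 0.0867; 0.75 at adjusted p = 0.0565). Klf4 (1.42 ± 0.23) and Klf2 (1.32 ± 0.23) were higher in tendon than in muscle.

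Nr2f2 (COUP-TFII), a regulator of vessels and mesenchyme, stood at 14.2 and 10.4 for fat pad, 22.6 and 26.3 for muscle and 57.0 and 31.3 for tendon. It was lower in fat pad than in tendon (-1.85 ± 0.33, adjusted p = 0.00272) and than in muscle (-0.99 ± 0.32, adjusted p = 0.0328). The call against muscle was lost without any 1 library of fat pad or muscle (-1.20 to -0.79, adjusted p = 0.0508 to 0.153). It was also lost with scaling by total counts (-0.48 at adjusted p = 0.28). Nr2f1 (COUP-TFI) was scarce, at 0.199 and 0.587 for fat pad, 0.759 and 0.925 for muscle and 2.49 and 1.76 for tendon. It was lower in fat pad than in tendon (-2.42 ± 0.74, adjusted p = 0.0274). Without the first fat pad or the first tendon library this was -1.78 at adjusted p = 0.0731 and -2.10 at adjusted p = 0.107, and without the second fat pad library -3.41 at adjusted p = 0.0178. Nr2f6 (EAR2) stood at 14.5 and 19.1 for fat pad, 15.5 and 20.6 for muscle and 20.2 and 30.0 for tendon and was called nowhere (adjusted p = 0.766, 0.116 and 0.248). Its counts are uncertain, since 54.4% of its exonic bases overlap Ocel1 on the other strand; the overlap is 7.5% for Nr2f2.

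Nr2c1 (TR2) and Nr2c2 (TR4), are testicular receptors found in many tissues. Nr2c1 stood at 10.4 and 8.25 for fat pad, 11.3 and 12.0 for muscle and 14.3 and 10.7 for tendon and was called nowhere (adjusted p = 0.304, 0.191 and 0.795). Nr2c2 stood at 16.0 and 10.4 for fat pad, 19.8 and 30.4 for muscle and 34.3 and 22.7 for tendon and was called lower in the fat pad (-0.93 ± 0.34, adjusted p = 0.048; -1.12 ± 0.34, adjusted p = 0.0258). Against muscle it was not called without the second fat pad or the second muscle library (-0.66 at adjusted p = 0.204; -0.59 at adjusted p = 0.262). Nor was it with total counts, the stricter filter or the replicate block (-0.97 to -0.42, adjusted p = 0.0583 to 0.356). Against tendon it was not called without the second fat pad or the first tendon library (-0.85 at adjusted p = 0.126; -0.74 at adjusted p = 0.129). For Nr2c2, 31.2% of exonic bases overlap other genes, Mrps25 among them. Nr6a1 (GCNF), known from germ cells, stood at 3.41 and 1.94 for fat pad, 5.27 and 7.35 for muscle and 5.34 and 3.93 for tendon and was lower in fat pad than in muscle (-1.24 ± 0.42, adjusted p = 0.0394). Its call was lost without the second fat pad library or either muscle library (-1.47 to -0.89, adjusted p = 0.0721 to 0.205). Total counts (-0.73 at adjusted p = 0.208) and the replicate block (-1.296 at adjusted p = 0.0511) ended it too. Nr5a2 (LRH-1), a receptor of liver, gut and ovary, was at 0.885 and 0.276 for fat pad, 0.784 and 0.506 for muscle and 2.70 and 1.33 for tendon and called nowhere (adjusted p = 0.879, 0.0948 and 0.173).

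Among receptors known from the liver, Hnf4a and Nr0b2 were near or below detection, unlike Nr1i3. Hnf4a had 0 and 7 counts in the fat pad, 0 in both muscle libraries, and 2 and 0 in tendon, and was not tested. Nr0b2 (SHP), which lacks a DNA-binding domain, had 5 and 21 counts in the fat pad. Nr1i3 (CAR), a sensor of foreign chemicals, was counted at 29.1 and 36.1 for fat pad, 38.7 and 26.6 for muscle and 12.5 and 23.1 for tendon and called nowhere (adjusted p = 0.998, 0.0591 and 0.0957). Of its exonic bases 74.9% overlap Tomm40l, a mitochondrial import gene on the other strand, so reads from both genes cannot be told apart where strand was not used. The 3 liver markers listed in all tables summed to 6.89 and 8.29 CPM for fat pad, 0.147 and 0.198 for muscle and 12.4 and 0.769 for tendon.

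**Figure D3:**
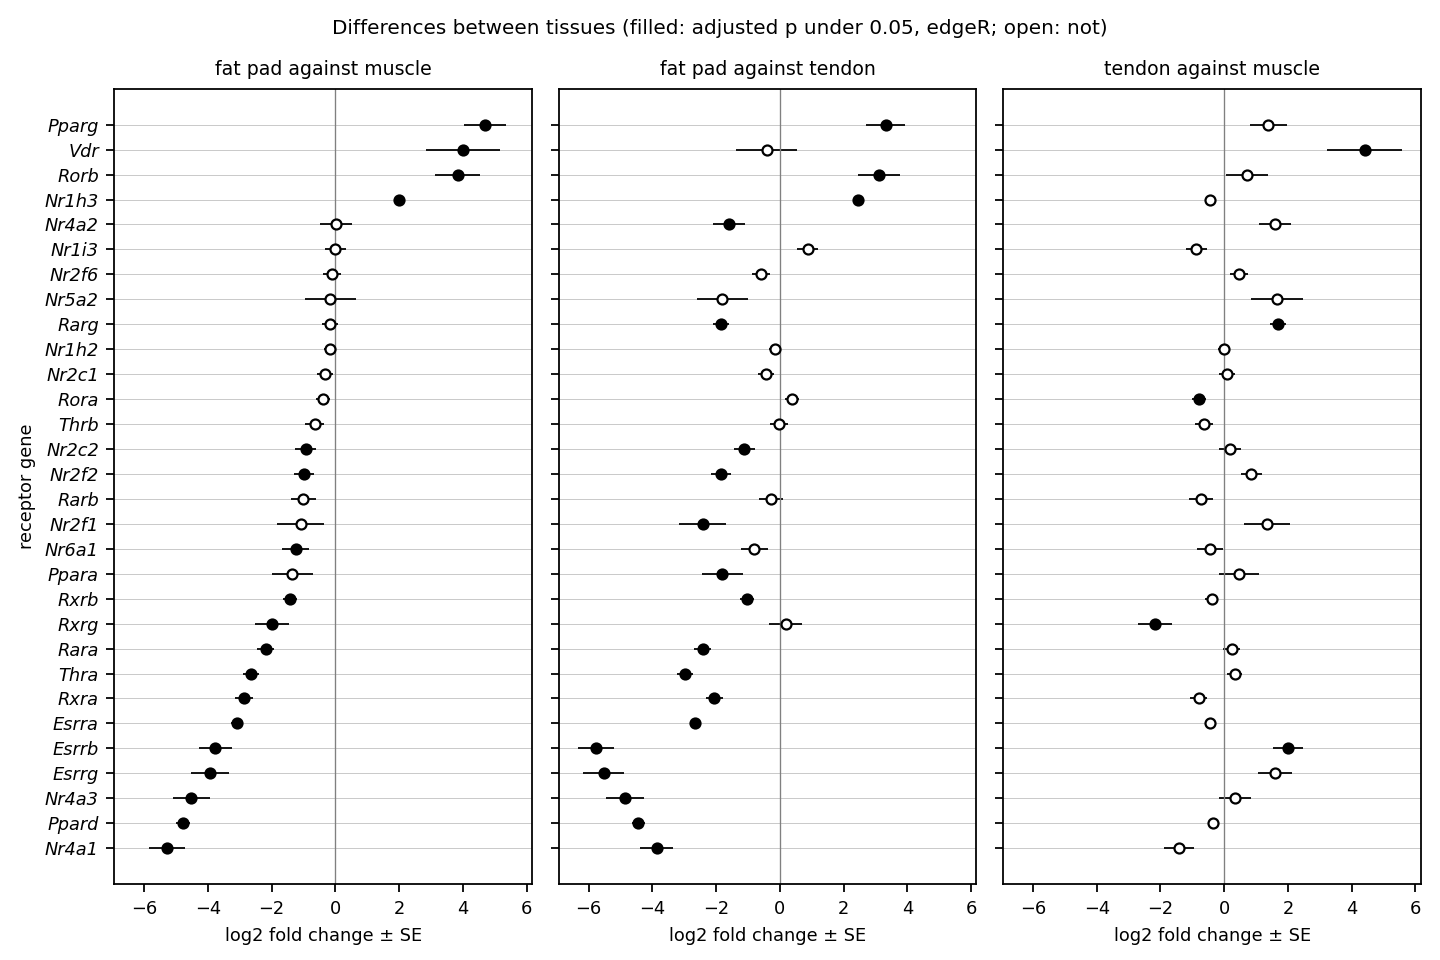
Log2 fold change ± SE of the 30 tested receptors in the 3 comparisons between tissues, ordered by the first; filled points passed an adjusted p of 0.05 and open points did not. In the fat pad 4 receptors were higher and 14 lower than in muscle and 3 higher and 16 lower than in tendon, while 5 differed between tendon and muscle.

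Receptors act through shared coactivators and corepressors, and most of these were lower in the fat pad too. Of 19 tested, 4 were higher and 12 lower than in muscle (median -1.36), 3 higher and 11 lower than in tendon (median -1.37), and 2 higher and 1 lower in tendon than in muscle (median -0.10). Ncor1, a corepressor of unliganded receptors, stood at 141 and 149 for fat pad, 145 and 165 for muscle and 142 and 117 for tendon and was not called (adjusted p = 0.684 and 0.499). Carm1, a coactivating methyltransferase, stood at 8.28 and 5.38 for fat pad, 105 and 101 for muscle and 58.3 and 65.5 for tendon (-3.92 ± 0.26; -3.18 ± 0.25). Ppargc1a (PGC-1α) stood at 5.31 and 6.77 for fat pad, 55.3 and 43.9 for muscle and 78.2 and 19.3 for tendon (-3.04 ± 0.61; -3.01 ± 0.61), with a wide spread in tendon; the difference from tendon was -3.70 to -1.63 as each library of the 2 was left out. Higher in the fat pad were Ncoa4, also the adaptor for ferritin breakdown, at 175 and 134 for fat pad, 47.1 and 54.3 for muscle and 43.4 and 33.5 for tendon (1.61 ± 0.23), and Lcor (1.73 ± 0.29 against tendon, a call lost on TPM). Nrip1 (RIP140), a repressor of energy use in fat, was at 87.1 and 127 for fat pad, 34.2 and 54.9 for muscle and 64.5 and 29.6 for tendon (1.27 ± 0.42). The Nrip1 call was lost without the second fat pad library or either muscle library (0.96 to 1.65, adjusted p = 0.0502 to 0.176). Without the first muscle library 1 higher and 11 lower of the list were called. Between tendon and muscle, Ncoa3 (0.95 ± 0.18) and Crebbp (0.85 ± 0.17) were higher and Hdac3 was lower (-0.64 ± 0.16), though with 0.09 at adjusted p = 0.689 with total counts and 0.15 at adjusted p = 0.528 on TPM.

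By mean RPKM of the 2 libraries, the leading receptors in the fat pad were Pparg (69.3), Nr1h3 (37.1), Nr1h2 (16.9), Rxrg (11.1); in muscle Nr4a1 (86.1), Rxra (46.9), Rxrg (44.2), Esrra (25.2), Thra (23.9); and in tendon Nr4a1 (32.2), Thra (30.1), Rxra (26.9), Nr1h2 (18.9), Esrra (18.6), Rarg (16.1). At or above 1 RPKM on average stood 16 of 31 receptors of fat pad, 23 of muscle and 24 of tendon. Most neighbours in these orders were not separated by their libraries: the ranges overlapped in 22 of 30 neighbouring pairs of fat pad, 22 of muscle and 23 of tendon. Exon lengths come from a different annotation than the counts, so the order is approximate. The deposited TPM gave another order. Mean TPM in the fat pad was 98.4 for Pparg, 31.4 for Nr1h3, 20.5 for Rora, 13.7 for Rxrg and 11.3 for Nr1h2. In tendon, Esrra (73.5), Rxra (59.9), Rarg (55.1) and Esrrg (29.4) lay above Nr1h2 (27.7) on that scale. Nr4a1 (285) and Rxra (77.5) led in muscle on both scales.

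The 2 libraries of a tissue were also set against each other, as library 2 over library 1 on scaled counts, with an exact interval that covers counting error only, for receptors whose higher library held 100 or more counts. In the fat pad 3 of 26 differed at least 2-fold, where 10.5% of all such genes did: Ppara at 0.413 (95% counting interval 0.349 to 0.489), Rxrg at 2.16 (95% counting interval 2.04 to 2.30) and Nr4a1 at 2.53 (95% counting interval 2.26 to 2.84). In muscle 3 of 26 did, against 2.82% of genes: Nr4a2 at 2.53 (95% counting interval 1.97 to 3.27), Nr4a3 at 2.65 (95% counting interval 2.41 to 2.91) and Esrrg at 3.16 (95% counting interval 2.69 to 3.73). In tendon 4 of 29 did, against 11.3%: Pparg at 0.257 (95% counting interval 0.235 to 0.281), Ppara at 0.326 (95% counting interval 0.291 to 0.364), Nr5a2 at 0.493 (95% counting interval 0.383 to 0.630) and Rxrg at 2.77 (95% counting interval 2.57 to 2.99). With 1 library on each side no test between them was made. The muscle library with more Esrrg, Nr4a2 and Nr4a3 also had more of the oxidative myosin Myh2 (475 and 2121 CPM) and less Fos (116 and 74.1). The part of either was not tested.

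**Figure D4:**
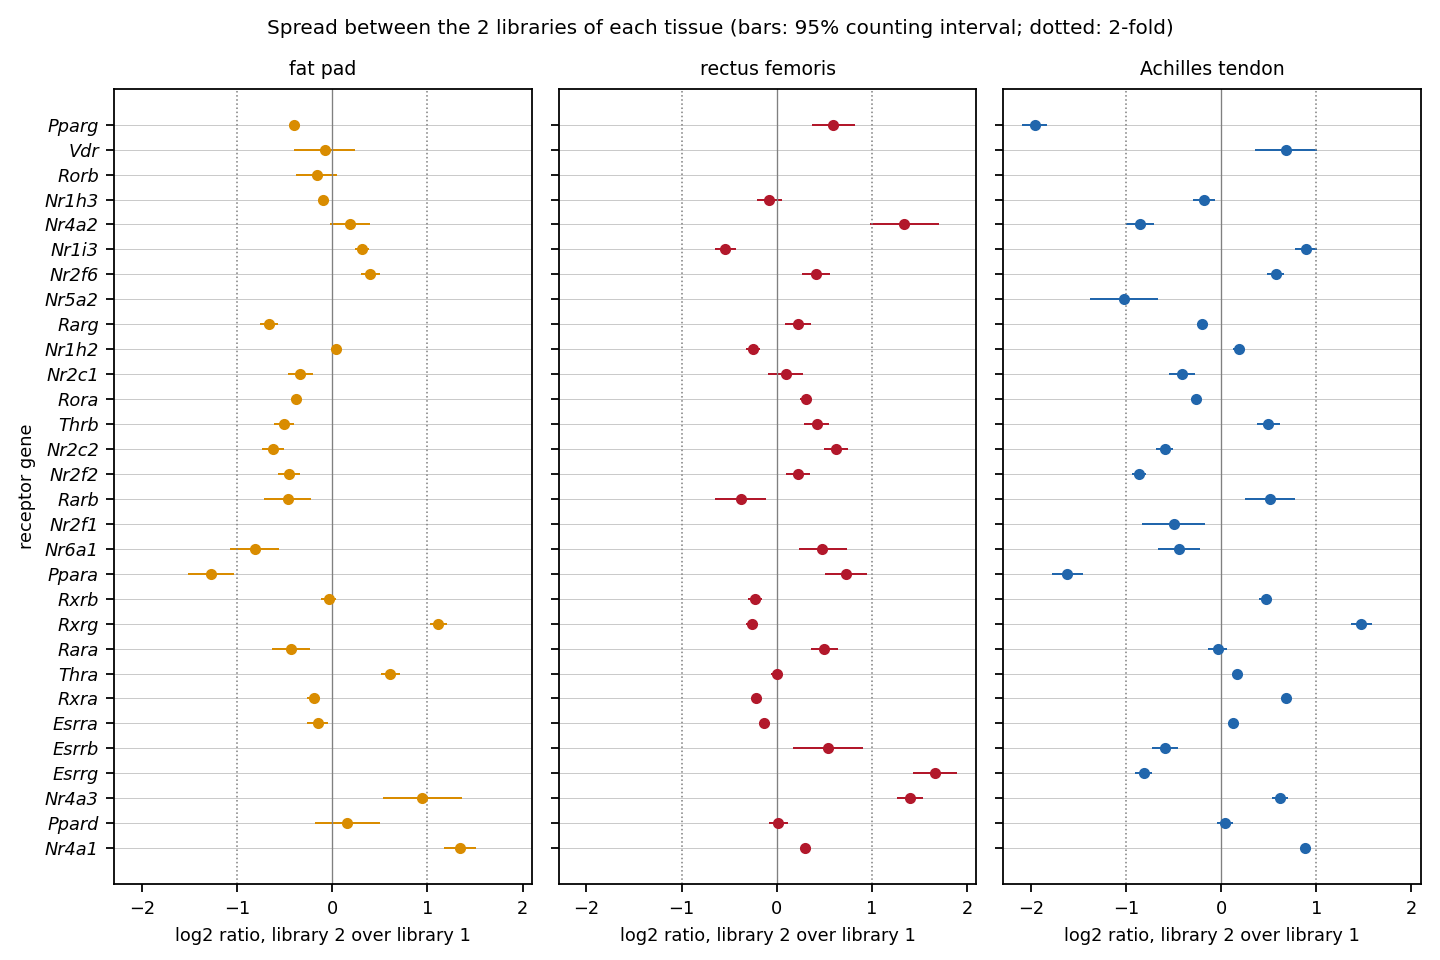
Log2 ratio of library 2 over library 1 within each tissue for receptors whose higher library held 100 or more counts; bars are 95% intervals for counting error and dotted lines mark a 2-fold difference. Pparg and Ppara lie below the lower line in tendon, Rxrg above the upper line in fat pad and tendon, and Nr4a2, Nr4a3 and Esrrg above it in muscle.

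The deposited tables also give TPM, which is scaled for gene length as well as depth and allows the receptors to be compared on a second scale. Across genes, the log2 ratio of the 2 libraries in counts and in TPM correlated at 0.994 in the fat pad (13718 genes), but at -0.181 in muscle (12195) and -0.226 in tendon (13151). Genes are not independent replicates. In these 2 tissues the TPM columns do not follow the count columns of the same name. The within-tissue ratios above can differ accordingly. Pparg in tendon was 32.6 and 8.38 CPM by counts and 25.9 and 28.3 by TPM. Nr4a3 in muscle was 14.2 and 37.7 by counts and 14.1 and 1.37 by TPM, and Esrrg in muscle 4.75 and 15.0 by counts and 6.81 and 1.23 by TPM. The differences between tissues mostly kept their direction: on log2(TPM + 1), with limma, all 16 receptors called against muscle in counts and measured in both had the same direction and were called, as were all 18 against tendon. Between tendon and muscle all 4 kept their direction and 3 were called. Some sizes moved: the Pparg difference from tendon was 1.81 at adjusted p = 6.21e-05, where the counts gave 3.32, and that of Esrrb from muscle -0.90 at adjusted p = 0.0414, where they gave -3.76.

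**Figure D5:**
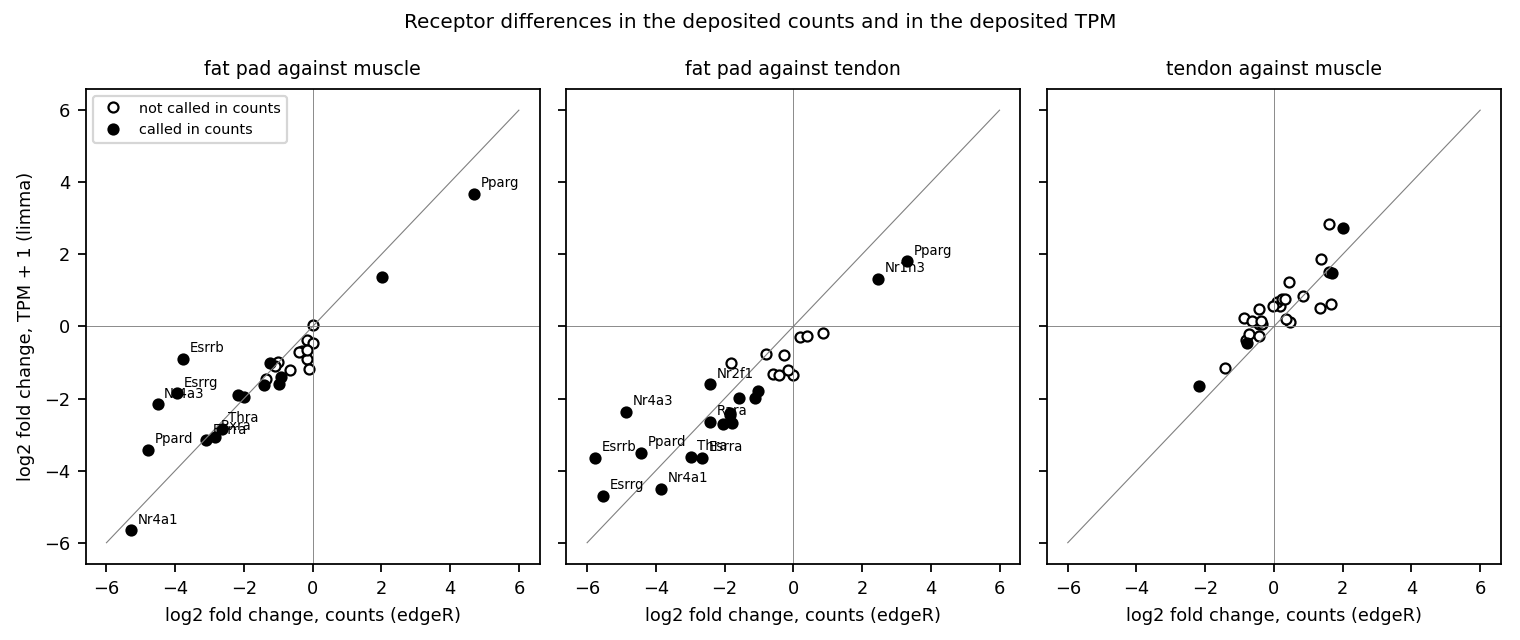
Log2 fold change of 28 receptors in the counts (x axis, edgeR) and in TPM + 1 (y axis, limma) for the 3 comparisons between tissues; filled points were called in the counts and the diagonal marks equal values. Filled points lie in the lower left or upper right part, so their direction is the same on both scales.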

How the data were processed

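Total RNA of 6 mouse tissue libraries was sequenced. The authors deposited, for each tissue, whole-number read counts per Ensembl gene and a table of TPM for part of the genes; per the submitters' processing notes, build GRCm39, DESeq2 1.4.5, RSEM 1.3.1 and Bowtie2 were used, with no role stated. For the counting, strand, annotation and filter, settings are not given in the sources here. Receptors were matched by the symbols in the deposited TPM tables, joined by Ensembl ID; for counted genes without one, symbols came from a names table.

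Genes listed in all 3 count tables were filtered with edgeR's filterByExpr (15856 kept) and fitted with edgeR 4.0.16 (TMM scaling, quasi-likelihood F-test, 1 coefficient a tissue, all 6 libraries, common biological coefficient of variation 0.336). Each p was adjusted by Benjamini-Hochberg over all genes tested, with a threshold of 0.05. SE is the absolute log2 fold change over the square root of F. The edgeR steps, without the filter and the alternatives, were tested on simulated counts in which far fewer genes changed than were called here. RPKM is scaled CPM per kilobase of merged exon in GENCODE M21 (GRCm38), from which the overlaps also come. With R 4.3.3, DESeq2 1.42.0 and limma 3.58.1 (log2 of TPM plus 1 or 0.1, genes at 1 TPM or more in at least 2 libraries) served as alternatives, beside other size factors, total counts, no filter, a filter at a mean of 1 CPM, only the compared tissues, a replicate block, and leaving out each library. Where that leaves 1 library, it is assumed to vary like the others. A floor of 3 counts per library bounds values at 0. Depth was 56216295 to 106319037 counts; counting intervals cover counting error only.

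The members and the 14 gene lists and 15 marker lists were chosen with earlier results of these data known. Named are all receptors; for each list and comparison the 2 called genes with the largest difference each way reaching 1 CPM in either tissue; and Fabp4, Klf9, Abca1, Pdk4, Perm1, Ppargc1a, Dio2, Aldh1a2, Egr1 and Fos. Results for some list genes are not reported here. Others were named after their values were seen. No per-sample column was left unused.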

Additional observations from a re-analysis of the deposited data

Results flagged for a closer look

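Hnf4a and Nr0b2 gave a signal outside the comparisons between tissues, above the limit that a count of 0 allows (3 counts). Hnf4a, a receptor of liver and gut, had 7 counts in the second fat pad library and 0 in the first. Nr0b2, which was listed only in the fat pad table, had 5 counts in its first library and 21 in its second. Both lie too near detection for a comparison. Groups of 2 libraries are too small for a check of outlying samples.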

How the results depend on the processing

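No called receptor changed direction under any of the 15 alternatives tried for it (13 for Rorb and Vdr, which the TPM filter removed). Calls held under every alternative for 13 of 18 receptors between fat pad and muscle (Pparg, Nr1h3, Rorb, Ppard, Thra, Rara, Rxra, Rxrb, Nr4a1, Nr4a3 and the 3 ERRs), for 15 of 19 between fat pad and tendon (the same 13 with Rarg and Nr2f2), and for 0 of 5 between tendon and muscle. The last comparison rests on few libraries: 5 receptors were called, against 12 with total counts only (11 higher, 1 lower), 11 with DESeq2 (5 higher, 6 lower), 9 and 8 on TPM with a pseudocount of 1 and 0.1, and 0 to 10 when each library was left out in turn: 0 without either muscle library, 1 without the first tendon library and 10 without the second. Over all genes the tendon to muscle count of 4127 became 43 without the first muscle library, 19 without the second and 1816 without the first tendon library (range 19 to 4379), while 4049 and 4780 genes had an unadjusted p under 0.05 without a muscle library. With total counts only it was 6366 (5968 higher, 398 lower). That scaling moved the median of all genes by 0.51 (fat pad against muscle), -0.22 (fat pad against tendon) and 0.73 (tendon against muscle) on the log2 scale, and its splits over all genes were 6348 higher and 3420 lower, and 3670 and 5452, in the first 2; on TPM with a pseudocount of 1 they were 3030 and 5790, 1608 and 7921, and 4504 and 540. For the receptors the fat pad counts stayed within 14 to 24 (muscle) and 15 to 25 (tendon) under all alternatives. Of 48 receptor comparisons that were not called, 24 turned direction under at least 1 alternative and 29 were called under at least 1; Nr1h2 was the 1 called in a turned direction, at 0.71 between tendon and muscle with total counts (adjusted p = 0.0147), which is about the shift of all genes. Replicate numbers are shared by the tissues, and the library differences of same-numbered libraries correlated at -0.056, 0.047 and -0.331. These values compare unlike tissues, so they cannot tell whether same-numbered libraries come from the same animal. With the replicate block 16, 19 and 5 receptors were called in the 3 comparisons, and 2759 genes in all between tendon and muscle. Genes of the pathway lists were less stable: of 105, 89 and 47 called in the 3 comparisons, 69, 66 and 1 were called under every alternative, and 3, 7 and 11 turned direction under at least 1. On TPM with a pseudocount of 1 or 0.1 these genes named here turned direction: Crym at -0.64 and -0.65 and Sdhb at -0.13 and -0.13 (fat pad against tendon), and Cpt1b at 0.40 and 0.40, Pdk4 at 0.50 and 0.50 and Hdac3 at 0.15 and 0.15 (tendon against muscle); Hdac3 was also at 0.086 with total counts. Why they turned was not tested. Depth limits Hnf4a, Nr0b2, and Vdr in muscle.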

Other observations

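Nuclear receptors without steroid ligands outside the 32 named genes followed the same tissues in part. Of 11 such genes, 5 were tested, and 1 was higher and 3 lower in fat pad than in muscle. Nr1d1 (REV-ERBα), a repressor of the circadian clock that faces Thra on the other strand, stood at 104 and 81.1 for fat pad, 209 and 162 for muscle and 157 and 150.0 for tendon CPM (-1.0 ± 0.23; -0.72 ± 0.23 against tendon; edgeR adjusted p = 0.00817 and 0.029). The call against muscle was lost without the first muscle library and with total counts. That against tendon was lost without the second fat pad library, without the first tendon library and with DESeq2 size factors (-0.65 to -0.56, adjusted p = 0.0509 to 0.133). Nr1d2 (REV-ERBβ) stood at 70.8 and 18.3 for fat pad, 133 and 149.8 for muscle and 93.1 and 85.5 for tendon, with its 2 fat pad libraries far apart (-1.67 ± 0.55 against muscle, a call lost without either muscle library and with total counts; -2.91 to -1.002 as each library of the 2 tissues was left out). Nr1h4 (FXR), the bile acid receptor, had no counts in muscle and 0.387 and 0.231 CPM in the fat pad, at least 4.43-fold higher against a floor of 3 counts in each muscle library.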
